A study of Mus musculus with 60 samples.

Results

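Nnt and 7 other genes of mitochondrial redox defence were followed in mouse cerebral cortex across 30 inbred strains and chronic fluoxetine treatment. The members were Nnt, Sod2, Gpx4, Prdx3, Txn2, Txnrd2, Glrx2 and Gsr, 8 of the 18193 genes that the array annotation names from probe sets carrying a single gene symbol. They were chosen by name, and every probe set annotated with 1 of these symbols alone was taken, which gave 22 probe sets, of which 21 passed the filter on low values. Nnt had 3 probe sets, Sod2 4, Gpx4 2, Prdx3 1, Txn2 3, Txnrd2 4, Glrx2 3 and Gsr 2. The remaining Nnt probe set, 1432608_at, lay near the floor of the data on every array, with a highest value of 2.32 on the log2 scale, and was not tested.

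The series comprised 60 Affymetrix arrays, 1 water array and 1 fluoxetine array for each strain. Each array carried RNA pooled from 3 males aged 10 to 11 weeks, so the spread between animals is not measured, and p-values reflect the spread over strains or between both arrays of a strain. Fluoxetine, a serotonin reuptake inhibitor antidepressant, was given in the drinking water at 18 mg/kg per day for 21 days, and controls received 0 mg/kg. The strains were C57BL/6J, C58/J, C57BLKS/J, C57BR/cdJ, NZW/LacJ, NZB/BlNJ, NOR/LtJ, NOD/LtJ, SWR/J, SJL/J, SM/J, RIIIS/J, P/J, PL/J, MRL/MpJ, MA/MyJ, LG/J, LP/J and I/LnJ. The rest were FVB/NJ, CE/J, DBA/2J, CBA/J, C3H/HeJ, BTBRT T(+) tf/J, BUB/BnJ, AKR/J, BALB/cJ, A/J and 129S1/SvImJ. The labels give the strain names and mention no transgene.

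Nnt encodes nicotinamide nucleotide transhydrogenase, an inner-membrane enzyme that uses the proton gradient to reduce NADP with NADH and so supplies NADPH to the mitochondrial matrix. That NADPH is spent by glutathione reductase (Gsr) and thioredoxin reductase (Txnrd2), which keep glutaredoxin (Glrx2), glutathione peroxidase (Gpx4), thioredoxin (Txn2) and peroxiredoxin (Prdx3) reduced, while manganese superoxide dismutase (Sod2) makes the peroxide that these enzymes remove. C57BL/6J is known to carry a deletion of several Nnt exons and to lack the functional protein. Where the probes lie relative to those exons, or to sequence differences between strains, was not analysed here.

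Array medians ranged from 39.1 to 43.1 intensity units, and the correlation between any pair of arrays from 0.963 to 0.997. Cortical neuron markers were high on every array (Snap25 15.51 to 15.78 and Rbfox3 13.36 to 13.83, log2), and the liver markers Alb and Apoa1 lay at or near the floor. Other neuron markers varied more (Slc17a7 10.65 to 13.56, Tbr1 10.71 to 12.34, Cux2 11.15 to 12.10 and Fezf2 9.80 to 11.03). Striatum markers varied between arrays too (Drd1 7.68 to 9.07, Rgs9 6.14 to 8.78 and Ppp1r1b 8.16 to 10.90). The choroid plexus gene Ttr ran from 4.25 to 15.09 between arrays, and the other markers of that tissue reached 4.95 (Kl), 3.25 (Folr1) and 2.79 (Clic6). In pooled tissue, fewer cells of a type and less RNA per cell cannot be told apart.

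Nnt was measured well above the floor by 2 probe sets, and on the first of them C57BL/6J had the lowest value of all strains. Probe set 1416105_at read 9.42 on the C57BL/6J water array and 9.35 on its fluoxetine array (log2 intensity), the lowest of 30 under each treatment. In the other 29 strains the strain means ran from 9.53 in CE/J to 10.43 in PL/J, with a mean of 10.03 ± 0.344 (SD, n = 29 strains). C57BL/6J was thus 0.64 below the mean of the others on the log2 scale (log2 difference -0.64, SE 0.340), a 1.56-fold lower level. Set against the spread between strains, this difference did not pass the threshold (limma on 30 strain means, p = 0.0693, adjusted p = 1.0, Benjamini-Hochberg over 21631 probe sets). The same held with the water arrays alone (-0.63, limma adjusted p = 0.699) and the fluoxetine arrays alone (-0.66, limma adjusted p = 1.0).

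On the first probe set, 1416105_at, the spread of Nnt between strains was not a continuum. The strain means of 1416105_at fell into 14 strains between 9.38 and 9.79 and 16 strains between 10.23 and 10.43, with no strain in the 0.44 between them, a 1.36-fold step. All 28 arrays of the first range lay at or below 9.85 and all 32 arrays of the second at or above 10.19, so that 0 strains had arrays on both sides. The lower range held C57BL/6J, CE/J, C57BLKS/J, DBA/2J, LP/J, RIIIS/J, C3H/HeJ, 129S1/SvImJ, SM/J, CBA/J, BTBRT T(+) tf/J, MA/MyJ, SWR/J and SJL/J, in rising order. C57BR/cdJ (10.30) and C58/J (10.28), which share ancestry with C57BL/6J, were in the upper range, and C57BLKS/J (9.53) in the lower. Among all tested probe sets, 1.57% had a gap at least as wide with at least 8 strains on each side. The width is that of this probe set itself, so the share is a description.

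Both arrays of a strain read alike for this probe set, with an SD within strains of 0.0694 against an SD of 0.358 between strain means. The strain F-test passed (limma, adjusted p = 2.16e-17), and the intraclass correlation, the share of variance lying between strains, was 0.963. Of the 29 steps between neighbouring strain means, 2 exceeded 2 standard errors of a difference between strains. One was the gap between the ranges, and the other was the 0.15 from C57BL/6J to CE/J at the bottom of the order. The remaining neighbours in the order did not differ by more than that error.

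**Figure D1:**
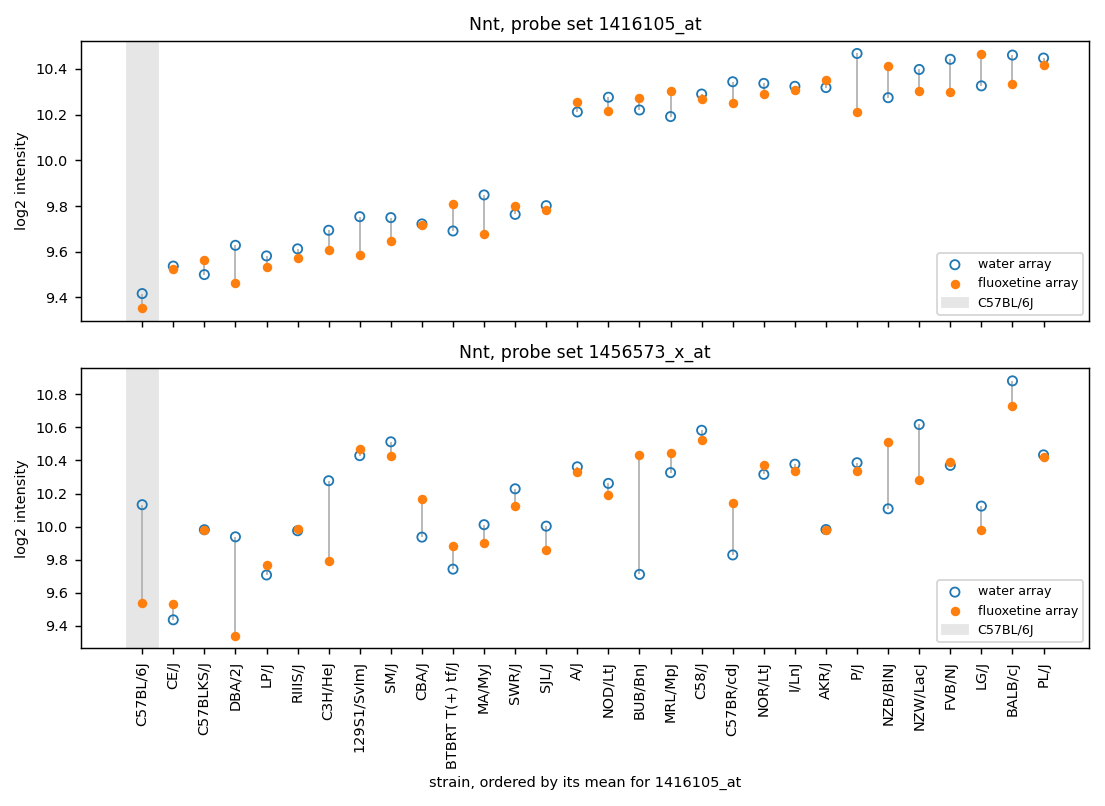
Log2 intensity of both well-detected Nnt probe sets on each of the 60 arrays (open circles, water; filled circles, fluoxetine; the line joins both arrays of a strain), with strains ordered by their mean for 1416105_at and C57BL/6J shaded. On 1416105_at the strains fall into a lower range of 9.38 to 9.79 and an upper range of 10.23 to 10.43, with C57BL/6J lowest, while 1456573_x_at shows no such break.

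The second Nnt probe set ordered the strains differently. On 1456573_x_at, C57BL/6J read 10.13 with water and 9.54 with fluoxetine, and its mean of 9.84 was only the 5th lowest. The lowest strains were CE/J (9.48) and DBA/2J (9.64), and the highest was BALB/cJ (10.81). The strains did not fall into separate ranges here. The widest gap (0.25) set BALB/cJ alone apart, and no step between neighbours exceeded 2 standard errors. The C57BL/6J difference was -0.33 (SE 0.294, limma adjusted p = 1.0), and it lay mainly in the fluoxetine array: -0.62 with the fluoxetine arrays alone (3rd lowest) and -0.03 with the water arrays alone (15th lowest). Arrays of a strain repeated less closely here, with an SD within strains of 0.187 and an intraclass correlation of 0.671. Fluoxetine minus water was 0.72 in BUB/BnJ, and -0.60 in DBA/2J and in C57BL/6J. Across the 30 strain means, both probe sets had a Pearson r of 0.650, given as a description.

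The strain pattern of Nnt was set beside that of its neighbours on the chromosome, since the 3 other genes with the most similar pattern across 30 strains, each taken by its most similar probe set, lay in the same stretch. In RefSeq order (GRCm38.p6), Nnt is followed by Paip1, which encodes an interactor of the poly(A)-binding protein, and by 4833420G17Rik, 3110070M22Rik, Tmem267, Ccl28, Hmgcs1 and Nim1k. With 1 probe set per gene, the most similar were 4833420G17Rik (1419635_at, r = 0.793, with r = 0.790 and 0.758 for 2 more of its probe sets), 3110070M22Rik (r = 0.755) and Tmem267 (r = 0.744), followed by Heatr5b (r = 0.664) and Nim1k (r = 0.650). These values rest on strains that form separate ranges and are descriptions over 30 strain means.

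The probe sets of 4 of these neighbours divided the strains into 11 and 19. For 4833420G17Rik 1419637_s_at, 11 strains lay between 7.85 and 8.56 and 19 between 9.97 and 10.43. For Tmem267, 11 strains lay between 4.87 and 6.54 and 19 between 9.26 and 11.42. For 3110070M22Rik the division was narrow and lay at low values, with 11 strains between 2.52 and 3.31 and 19 between 3.69 and 4.92. The direction was opposite for Paip1 1425521_at, where 11 strains lay between 9.79 and 10.50 and the other 19 between 4.42 and 8.06. The 11 strains were the same in each case, namely 129S1/SvImJ, BTBRT T(+) tf/J, C3H/HeJ, C57BLKS/J, CBA/J, CE/J, DBA/2J, LP/J, MA/MyJ, RIIIS/J and SM/J, and all 11 were among the 14 low strains for Nnt. The division was seen with 3 of 4 probe sets of 4833420G17Rik and 2 of 4 of Paip1, but not with the remaining ones, nor with Mrps30, the nearest tested gene on the other side of Nnt. It was also not seen farther along, where the widest gap set 9 strains above 21 for Ccl28, 1 strain below 29 for Nim1k, and only 1 or 2 strains apart for each of the 5 Hmgcs1 probe sets.

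The 3 strains low for Nnt that did not share the neighbours' division were C57BL/6J, SWR/J and SJL/J. For Paip1 1425521_at, SWR/J (8.06) and SJL/J (7.98) lay between the other strains, while C57BL/6J read 5.42, among the 17 strains at or below 6.35. For 4833420G17Rik 1419637_s_at, C57BL/6J read 10.19, and for Tmem267 10.73, both among the 19 high strains. C57BL/6J therefore had the level of the upper-range strains for these 3 genes and the lowest level of all for Nnt 1416105_at. Without C57BL/6J, r with Nnt across 29 strains rose from 0.793 to 0.892 for 4833420G17Rik 1419635_at, and from -0.83 to -0.95 for Paip1 1425521_at.

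**Figure D2:**
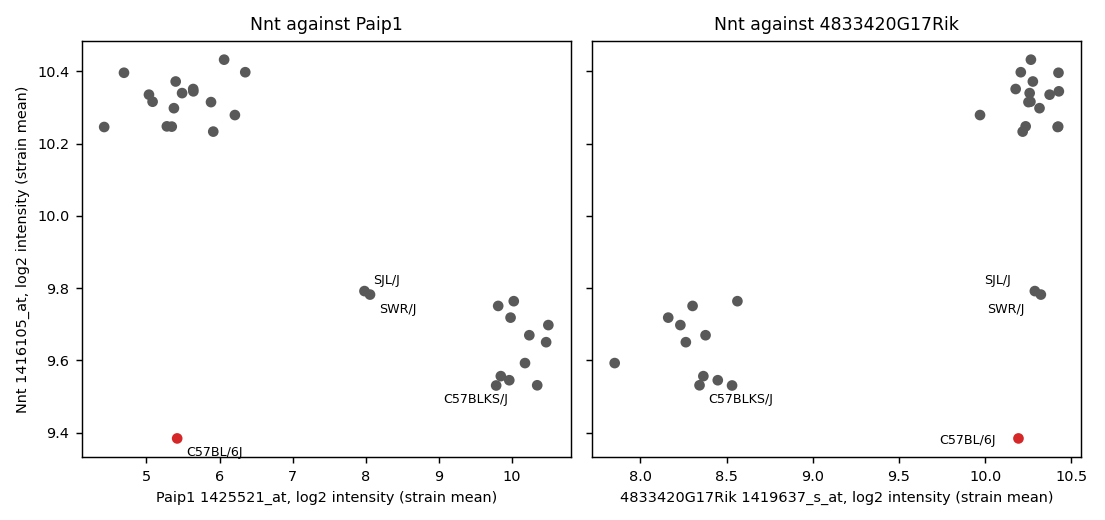
Strain means of Nnt 1416105_at (vertical axis, log2 intensity) against those of Paip1 1425521_at and 4833420G17Rik 1419637_s_at (horizontal axes, log2 intensity), 1 point per strain, with C57BL/6J in red. At a Paip1 level of 5.42 and a 4833420G17Rik level of 10.19, C57BL/6J sits beside the upper-range strains horizontally but below every strain vertically at 9.38.

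An alternative chosen after these values were seen placed the strain mean of a neighbour in the C57BL/6J comparison as a covariate. With Paip1 1425521_at, Nnt 1416105_at was lower in C57BL/6J by a log2 difference of -0.93 (limma, adjusted p = 2.67e-05), and it was the only 1 of the 21 member probe sets to pass, against 0.0555% of all probe sets. With 4833420G17Rik 1419637_s_at the difference was -0.84 (limma, adjusted p = 0.0389; 0.0509% of all probe sets passed). The second Nnt probe set did not pass with either (-0.45, adjusted p = 0.885, and -0.42, adjusted p = 0.963, limma). As the covariates were picked for following Nnt in these same strains, their p-values are not independent evidence.

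Sod2, the matrix superoxide dismutase, had the widest strain spread of the members, but only with part of its probe sets. On 1454976_at, 22 strains lay between 10.40 and 10.74, and 8 strains lay between 11.67 and 12.05, a gap of 0.93 or 1.91-fold. The 8 high strains were PL/J (11.67), CE/J (11.69), P/J (11.74), BUB/BnJ (11.81), SJL/J (11.87), BTBRT T(+) tf/J (11.90), NOR/LtJ (12.04) and NOD/LtJ (12.05). All 16 of their arrays read at least 11.66 and the other 44 at most 10.82. The intraclass correlation was 0.982 (strain F-test, limma adjusted p = 3.79e-22), and a gap this wide with at least 8 strains on each side was found in 0.795% of all tested probe sets. The gap and the limit of 8 equal those of this probe set, so the share is a description.

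Of the other Sod2 probe sets, 1 had the same strains highest and 2 did not. On 1417194_at the same 8 strains were the 8 highest, between 5.06 in BTBRT T(+) tf/J and 7.11 in NOR/LtJ, and the next was A/J at 4.92. That probe set read low (median of all arrays 4.30), with an SD within strains of 0.390. Its steps between neighbouring strains did not exceed 2 standard errors. BTBRT T(+) tf/J read 5.71 with water and 4.41 with fluoxetine, so its place above A/J is within the error. Across strains, 1417194_at and 1454976_at had an r of 0.897. On 1448610_a_at and 1417193_at, strain means spanned only 0.53 and 0.50, and r with 1454976_at was -0.61 and -0.52. There, 7 of the 8 strains lay below the median of all strains on each of these probe sets, and NOD/LtJ (11.08) was among the 8 highest on 1417193_at. The 4 probe sets of Sod2 therefore give no single order of the strains. By strain mean, C57BL/6J ranked between 9th and 19th from the lowest on all 4. With water and with fluoxetine it ranked 2nd and 18th on 1417193_at, and 6th and 20th on 1448610_a_at. It ranked 14th and 19th on 1417194_at, and 21st and 19th on 1454976_at. Its rises with fluoxetine on 1417193_at (0.25) and 1448610_a_at (0.16) were the largest of the 30 strains, each from 1 array per treatment.

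**Figure D3:**
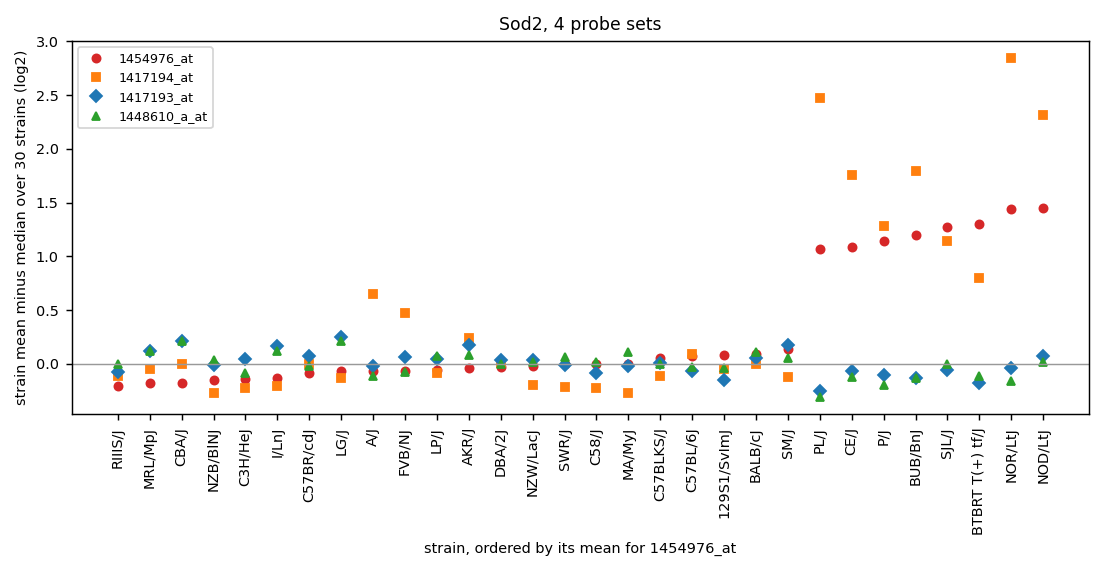
Strain mean minus the median over 30 strains (log2) for the 4 Sod2 probe sets, with strains ordered by 1454976_at. The 8 strains at the right are the 8 highest on 1454976_at and 1417194_at, while 7 of them lie below the median on each of 1417193_at and 1448610_a_at.

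The Sod2 promoter is shown because Sod2 held the widest strain difference of the members and its promoter is a textbook case of a GC-rich promoter with GC boxes, sites that Sp1 can bind. The 250 bases before the RefSeq start (GRCm38.p6, chr17:13007589-13007838, plus strand) have a GC content of 63.6%, and capitals mark the motif GGGCGG, searched on both strands and found 4 times.

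Sod2: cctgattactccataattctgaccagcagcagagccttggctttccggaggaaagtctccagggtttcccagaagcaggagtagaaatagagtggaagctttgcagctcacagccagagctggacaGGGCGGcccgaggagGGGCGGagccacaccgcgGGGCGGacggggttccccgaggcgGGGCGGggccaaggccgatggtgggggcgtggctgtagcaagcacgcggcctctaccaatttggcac

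Over windows of 300 bases, from 250 before to 50 after a start, GGGCGG was present in 35.7% of 32851 windows of the RefSeq table. The letters TGACNNNGC, the core of the element that NRF2 binds, were present in 12.4% of those windows and in 0 of the 12 windows listed for 6 members. No window was listed for Nnt or Gsr. GGGCGG was not particular to Sod2 among these 6. It was found up to 2 times in windows of Glrx2, Gpx4 and Txn2, and 1 time in those of Txnrd2 and Prdx3. The assembly represents C57BL/6J, which was among the 22 strains with the lower Sod2 1454976_at level. No strain's own promoter sequence was read here.

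Gsr, which regenerates reduced glutathione in cytosol and mitochondria, spanned 1.58 on the log2 scale between strains on 1421816_at, close to the 1.65 of Sod2 1454976_at. On 1421816_at, C57BL/6J was again lowest, with 7.15 on the water array and 7.11 on the fluoxetine array, each the lowest of 30. C57BLKS/J followed at 7.31 and NZB/BlNJ at 7.45, and AKR/J was highest at 8.71, a range of 2.99-fold. C57BL/6J differed from the mean of the others (8.08 ± 0.388, SD, n = 29 strains) by -0.96 (SE 0.383, limma p = 0.0184, adjusted p = 0.857). Against the 3 C57- and C58-related strains alone the difference was -0.45 (limma adjusted p = 1.0). No step between neighbours in the order exceeded 2 standard errors. On 1421817_at, C57BL/6J was 6th lowest at 7.29 (-0.24, and 0.03 against the 3 related strains, limma adjusted p = 1.0 for each), so the first place was not repeated.

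Both Gsr probe sets nonetheless shared their lower end. The same 9 strains were the 9 lowest on each, namely C57BL/6J, C57BLKS/J, NZB/BlNJ, NZW/LacJ, FVB/NJ, BTBRT T(+) tf/J, I/LnJ, C58/J and C57BR/cdJ. On 1421817_at they lay between 7.09 and 7.34, below the next strain, MA/MyJ, at 7.44. The r between both probe sets was 0.831 over 30 strains. The strain F-test passed for each (limma, adjusted p = 1.24e-07 and 6.51e-06). The probe sets of other genes most like 1421816_at were those of Pyroxd2 (r = 0.751), Tnks (0.750), Fgfr3 (0.748), Srsf2 (0.737) and Acap3 (0.715), and Pyroxd2 was also 2nd for 1421817_at (0.709).

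Glrx2, the mitochondrial glutaredoxin, which reduces protein disulfides formed with glutathione, varied among strains in an order that its 3 probe sets largely shared. Their pairwise r was 0.811 to 0.944, and each spanned about 1.9-fold between its lowest and highest strain (1.90 to 1.91). On 1437679_a_at the lowest strains were P/J (10.28) and C58/J (10.29), and the highest were NOR/LtJ (11.12) and NOD/LtJ (11.22), set apart from the other 28 by a step of 0.15, the only 1 over 2 standard errors. Of its 9 highest strains, 8 were also among the 9 highest on 1422998_a_at and 8 on 1437680_x_at. The intraclass correlations were 0.940, 0.927 and 0.867, so both arrays of a strain agreed closely. C57BL/6J ranked 13th, 14th and 3rd from the lowest.

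Txn2, the mitochondrial thioredoxin, was level across most strains. MA/MyJ was lowest and 129S1/SvImJ second lowest on all 3 probe sets. The step between these 2 strains was the only 1 over 2 standard errors on 1455640_a_at (0.36) and on 1421557_x_at (0.23). On 1452782_a_at no step exceeded that error, and MA/MyJ was not called. On 1455640_a_at, MA/MyJ read 9.48 and 9.59 on its water and fluoxetine arrays, 129S1/SvImJ read 9.81 and 9.97, and the means of the other 28 strains ran from 10.04 in SWR/J to 10.42 in AKR/J. Against the other 29 strains, MA/MyJ was lower by a log2 difference of -0.69 on 1455640_a_at (SE 0.109, limma adjusted p = 0.000383) and -0.47 on 1421557_x_at (SE 0.0936, limma adjusted p = 0.0104). Over all probe sets, 78 were called for MA/MyJ in either direction, 0.361% of those tested.

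These 2 calls were the only ones when each of the 30 strains was set in turn against the other 29 for the 21 member probe sets. That is 2 of 630 comparisons, 0.317%, beside 0.306% over all probe sets and strains, so the members as a group were at the background. C57BL/6J ranked between 9th and 20th for Txn2. Pdxp, a pyridoxal phosphatase gene, had the most similar strain pattern to each of the 3 Txn2 probe sets (r = 0.869, 0.834 and 0.772).

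**Figure D4:**
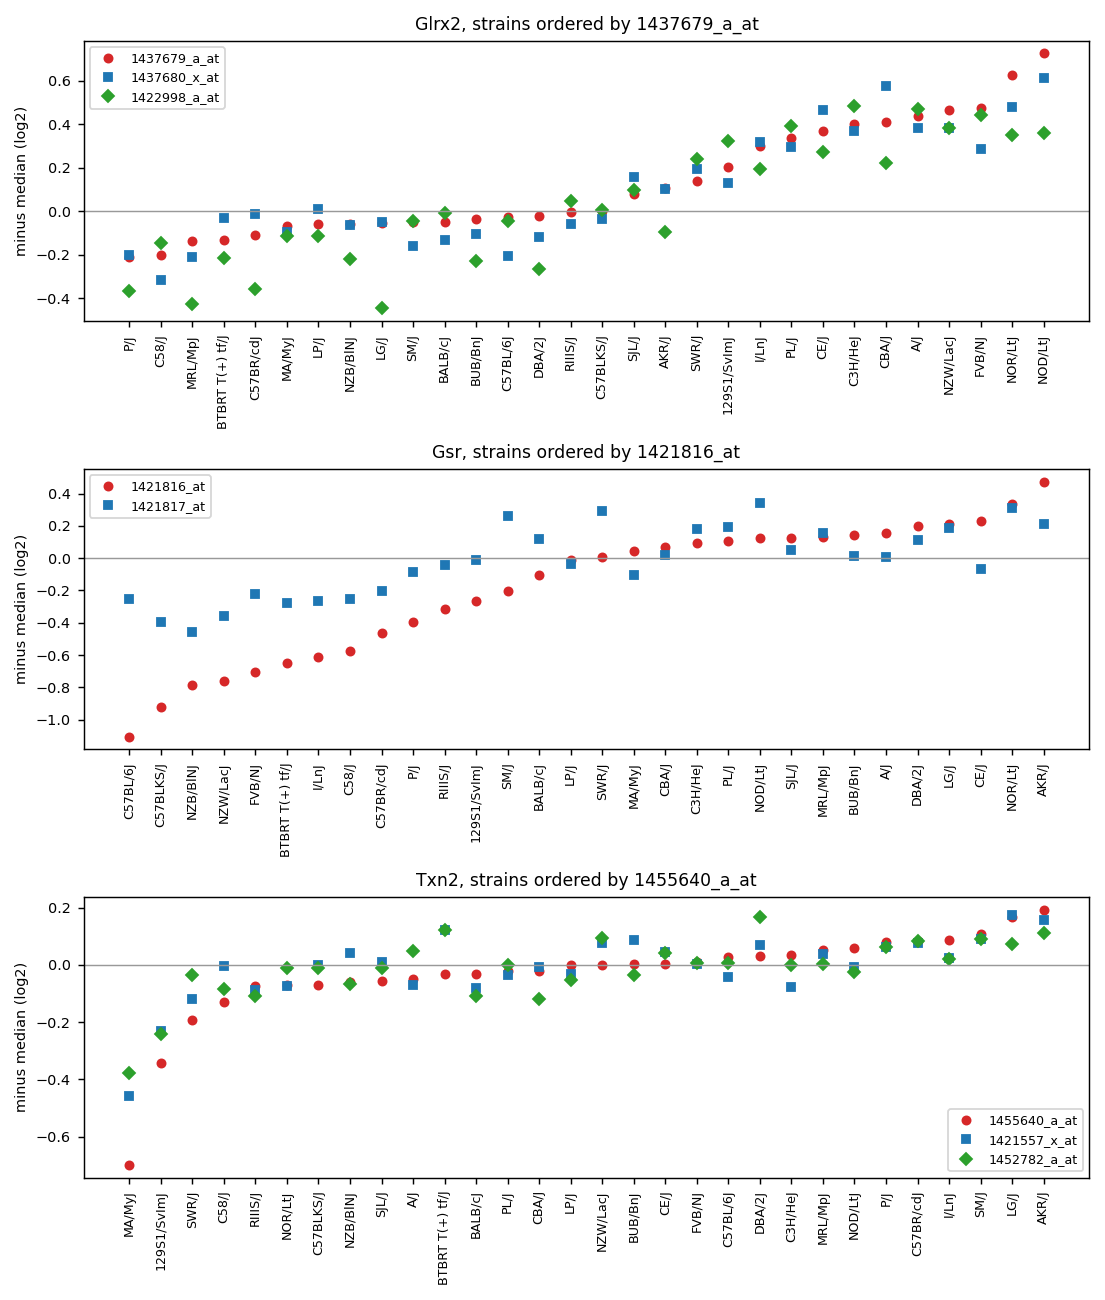
Strain mean minus the median over 30 strains (log2) for the probe sets of Glrx2, Gsr and Txn2, each panel ordered by its first probe set. The probe sets of Glrx2 and those of Gsr order the strains alike, with C57BL/6J lowest on Gsr 1421816_at. For Txn2, MA/MyJ is lowest and 129S1/SvImJ next on each probe set.

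Txnrd2, the reductase that serves Txn2, held the least repeatable strain differences. Its 4 probe sets had intraclass correlations of 0.393 (1429971_at), 0.143 (1429972_s_at), 0.511 (1449097_at) and 0.282 (1451936_a_at). The second was the only tested member probe set that did not pass the strain F-test (limma, adjusted p = 0.169). Probe set 1429971_at had r of 0.115, 0.110 and 0.00933 with the other 3, whose mutual r was 0.595 to 0.743. No strain is therefore named as high or low for Txnrd2.

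Gpx4, which reduces lipid hydroperoxides, and Prdx3, the matrix peroxiredoxin, were high and narrow in range. C57BL/6J had the lowest strain mean for each, but not the lowest value under both treatments: it ranked 1st with water and 2nd with fluoxetine on Gpx4 1451695_a_at, 2nd and 1st on 1456193_x_at, and 1st and 3rd for Prdx3. Gpx4 read 12.50 with water and 12.56 with fluoxetine in C57BL/6J on 1451695_a_at, against strain means of 12.59 to 12.91 in the others (difference -0.18, SE 0.0878, limma adjusted p = 0.978). On 1456193_x_at the C57BL/6J mean was 12.11 and that of SWR/J 12.12, which did not differ beyond the spread between arrays (C57BL/6J against the others -0.22, limma adjusted p = 1.0). Prdx3 read 10.74 and 10.84 in C57BL/6J, against 10.88 in P/J to 11.26 in BTBRT T(+) tf/J (difference -0.27, SE 0.105, limma p = 0.0153, adjusted p = 0.823). The genes with patterns most like Gpx4 1451695_a_at were Mrps24 (r = 0.886), Ndufa8 (0.882), Cox6b1 (0.876), Cox4i1 (0.867) and Timm13 (0.858), and those most like 1456193_x_at were Atp5d (0.904), Cplx1 (0.894), Atp5g3 (0.889), Elp2 (0.876) and Chchd10 (0.874).

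Over all members, strain differences passed the F-test for 20 of 21 probe sets (95.2%), beside 85.8% of the 21631 probe sets tested (limma, Benjamini-Hochberg adjusted p under 0.05). The median intraclass correlation was 0.695 for the members and 0.576 for all probe sets.

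For C57BL/6J against the other 29 strains, 0 of 21 member probe sets passed (limma, adjusted), beside 0.0416% of all, and 3 had an unadjusted p under 0.05 (Gsr 1421816_at, Prdx3 and Gpx4 1451695_a_at) beside 5.09% of all. C57BL/6J was the lowest of 30 strains on 5 of 21 (23.8%), beside 5.16% of all probe sets. These 5 belong to 4 genes, Nnt, Gsr, Prdx3 and Gpx4, and the Gpx4 probe sets had an r of 0.890 with each other. C57BL/6J lay below the mean of the others on 18 of 21 (85.7%), beside 62.4%, and the median difference was -0.16 for the members and -0.04 for all. The 2 C57BL/6J arrays differed in this. With the water arrays alone 20 of 21 were below (95.2%, beside 63.1% of all) with a median of -0.23, and with the fluoxetine arrays alone 13 of 21 (61.9%, beside 59.1% of all) with a median of -0.07. C57BL/6J was the lowest strain on 5 of 21 with water (beside 7.42% of all) and on 3 of 21 with fluoxetine (beside 2.64%), and only Nnt 1416105_at and Gsr 1421816_at were lowest under both.

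When the 60 arrays were fitted singly, so that the error was the spread between both arrays of a strain, 8 of 21 member probe sets were lower in C57BL/6J (38.1%) and 0 were higher, beside 20.1% of all probe sets called in either direction. They were Nnt 1416105_at (limma adjusted p = 3.17e-11), Gsr 1421816_at (9.06e-06), Prdx3 (8.01e-05), Glrx2 1437680_x_at (0.00160), Sod2 1454976_at (0.00399), Gpx4 1451695_a_at (0.00840), Gpx4 1456193_x_at (0.00947) and Glrx2 1437679_a_at (0.0190). That fit asks whether the 2 C57BL/6J arrays differ from the average of the others, not whether C57BL/6J is unusual among strains. On Sod2 1454976_at, C57BL/6J ranked 19th from the lowest, and its 10.67 was above the median strain mean of 10.60. The mean of the others there, 10.91, includes the 8 high strains. On Glrx2 1437679_a_at, C57BL/6J ranked 13th.

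**Figure D5:**
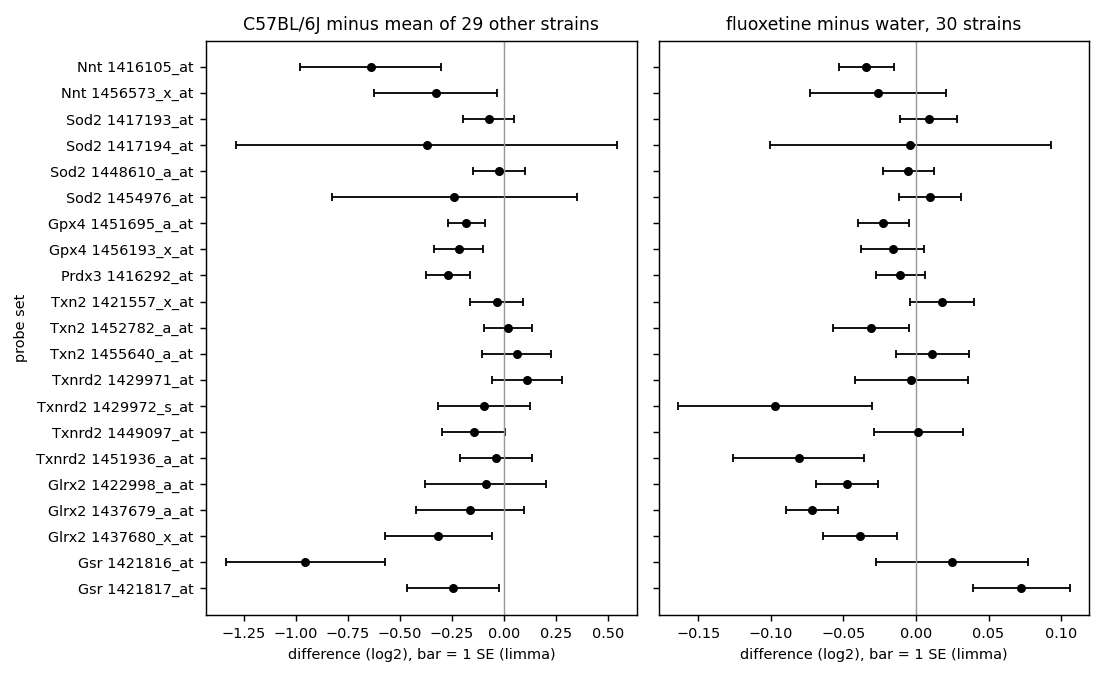
Difference (log2) with 1 standard error from limma for the 21 tested member probe sets, C57BL/6J minus the mean of the 29 other strains on the left and fluoxetine minus water over 30 strains on the right, on separate scales. Nnt 1416105_at (-0.64) and Gsr 1421816_at (-0.96) lie farthest below 0 on the left, and on the right no difference exceeds 0.10 in size.

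No member passed the test for a fluoxetine difference. With strain as a block, 0 of 21 member probe sets passed (limma, Benjamini-Hochberg), beside 0.0462% of all, and 3 had an unadjusted p under 0.05, beside 13.6% of all. Differences ran from -0.10 to 0.07 on the log2 scale, 14 probe sets being lower (66.7%, beside 54.6% of all) and 7 higher. Nnt 1416105_at had a lowest, median and highest value of 9.42, 10.20 and 10.47 with water and 9.35, 10.21 and 10.47 with fluoxetine, so the groups overlapped throughout. Its difference was -0.03 (SE 0.0190, limma adjusted p = 0.440), lower in 21 of 30 strains, and in C57BL/6J it was -0.06. Nnt 1456573_x_at differed by -0.03 (SE 0.0468, limma adjusted p = 0.867), and in C57BL/6J by -0.60, from 1 array per treatment.

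The smallest p among the members was that of Glrx2 1437679_a_at. It had a lowest, median and highest value of 10.37, 10.55 and 11.23 with water and 10.18, 10.50 and 11.21 with fluoxetine. Within strains it was lower with fluoxetine in 24 of 30, by 4.85% on average (log2 difference -0.07, SE 0.0179, limma p = 0.00034, adjusted p = 0.0975). Over 37 alternatives the adjusted p did not fall below 0.0747. The other Glrx2 probe sets differed by -0.05 (SE 0.0212, adjusted p = 0.312) and -0.04 (SE 0.0256, adjusted p = 0.541), each lower in 20 of 30 strains (limma). None of these passed the threshold, and the values overlap between treatments because the strain differences of Glrx2 are far wider.

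Gsr 1421817_at was higher with fluoxetine in 22 of 30 strains (log2 difference 0.07, SE 0.0335, limma p = 0.0381, adjusted p = 0.335), while Gsr 1421816_at differed by 0.02 (SE 0.0524, adjusted p = 0.898, limma). Txnrd2 1429972_s_at had the largest difference in size, -0.10 (SE 0.0668, limma adjusted p = 0.557), on the probe set with the least repeatable strain values. The 4 Sod2, 2 Gpx4, 3 Txn2 and 1 Prdx3 probe sets differed by between -0.03 and 0.02, with limma adjusted p of at least 0.628.

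Among cell type markers, the 5 tested oligodendrocyte genes (Mbp, Mog, Mag, Cnp and Mal) all had lower values with fluoxetine, beside 53.1% of all 11887 genes. The median log2 difference of the 5 was -0.16 and 0 were called. Of the 5, 4 had an unadjusted limma p under 0.05, beside 13.6% of all probe sets. Their summed level on the log2 scale ran from 14.92 to 15.61 with water and from 14.41 to 15.64 with fluoxetine. In C57BL/6J the same 5 were all above the mean of the others (median 0.37, 0 called), with sums of 15.35 and 15.49 on its 2 arrays. Of all genes, 66.8% lay below that mean. Of 5 astrocyte genes, 4 also lay above it and 1 below. With fluoxetine, an unadjusted limma p under 0.05 was also reached by 3 of 4 GABA interneuron, 2 of 5 astrocyte and 2 of 4 endothelial genes. None of these markers was at the floor, and their part in the differences of the members was not tested.

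Other genes that feed or use the same redox pool were read from lists of related enzymes. Of 12 genes that supply mitochondrial NADPH or NADH, 9 passed the strain F-test, beside 85.8% of all probe sets. With fluoxetine or in C57BL/6J, 0 of the 12 were called (limma, adjusted). At an unadjusted limma p under 0.05 there were 1 and 2, beside 13.6% and 5.09% of all probe sets. Me3, the mitochondrial NADP-dependent malic enzyme, spanned 1.81 on the log2 scale between strains, and C57BL/6J was 3rd lowest (-1.10, SE 0.399, adjusted p = 0.794). Idh2, the mitochondrial NADP-dependent isocitrate dehydrogenase, was lowest in C57BL/6J (-0.27, SE 0.126, adjusted p = 0.978). The list did not lean that way, with 7 of 12 genes above the mean of the others in C57BL/6J and 5 below. That is 41.7% below, beside 66.8% of all 11887 genes. Dld, the lipoamide dehydrogenase, was highest of 30 there (0.18, limma adjusted p = 1.0), and the folate-cycle genes Mthfd2 (0.52, limma adjusted p = 0.996) and Mthfd2l (0.51, limma adjusted p = 1.0) were each the second highest. Of 8 tested cytosolic NADPH suppliers, 8 passed the strain F-test and 0 were called in the other comparisons (0 and 0 at an unadjusted p under 0.05). In C57BL/6J, 7 of these 8 lay below the mean of the others (87.5%, beside 66.8% of all 11887 genes).

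Of 23 tested thiol and peroxide enzymes outside the members, 21 passed the strain F-test, and 0 were called with fluoxetine or in C57BL/6J (1 and 3 at an unadjusted limma p under 0.05). In C57BL/6J, 17 of the 23 were below the mean of the others (73.9%, beside 66.8% of all 11887 genes, each by its highest probe set). The 3 with an unadjusted p under 0.05 were all lower, namely Prdx2, a cytosolic peroxiredoxin (-0.34, lowest of 30, limma adjusted p = 0.868), Glrx, the cytosolic glutaredoxin (-0.57, adjusted p = 0.794), and Txnrd1, the cytosolic thioredoxin reductase (-0.50, adjusted p = 0.808). Of 9 tested genes of glutathione synthesis and the NRF2 pathway, 7 passed the strain F-test and 0 the other comparisons (0 and 0 unadjusted). In C57BL/6J, 5 of these 9 lay below the mean of the others (55.6%). Of 23 tested genes that mark mitochondrial content, 19 passed the strain F-test and 0 the others (1 and 1 unadjusted). Their median C57BL/6J difference was -0.05, with 17 of the 23 below the mean of the others (73.9%).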

How the data were processed

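The values deposited by the authors are linear intensities, 1 for every probe set on every array, and the submitters' processing notes name GCRMA (no version in the sources used here). This method corrects background by probe sequence and normalizes between arrays, so low values pile up at a floor of 2.07 on the log2 scale. Of 45101 probe sets, 34945 carry 1 gene symbol in the platform annotation, 932 several, 9160 none, and 64 are controls. Values were log2-transformed, and the 21631 probe sets with 1 symbol and a log2 value of at least 4 in at least 6 arrays (11887 genes) were tested with limma 3.58.1 (R 4.3.3). The fluoxetine comparison used strain as a block, and the C57BL/6J comparison used 30 strain means. Benjamini-Hochberg adjustment ran over all tested probe sets, with a threshold of 0.05. The scripts were tested on simulated data.

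The arrays of a strain pair by strain: after removal of group means, each of the 30 water arrays correlated best with the fluoxetine array of its own strain (r 0.605 to 0.857). The number of arrays limits the precision, and shared batches of both arrays of a strain would count as strain differences. All member probe sets are named. From the gene lists, those past the threshold were to be named. None passed, so the list genes named were chosen after their values were seen, as were the oligodendrocyte, astrocyte, GABA interneuron and endothelial markers. The members and lists were chosen with earlier results of these data known. Alternatives are in the closing section.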

Additional observations from a re-analysis of the deposited data

How the results depend on the processing

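Over the alternatives tried (quantile normalization, pseudocount of 16, other filters, 1 value per gene, other eBayes settings, arrays of 1 treatment alone, C57BL/6J against 3 related strains, each strain left out), the 764 fluoxetine values of single member probe sets kept their side of the threshold, as did 112 of 113 strain tests and 838 of 848 C57BL/6J values. Uncalled differences changed sign in 36 cases over 4 probe sets for fluoxetine and in 14 cases over 12 probe sets for C57BL/6J, all 14 with arrays of 1 treatment, the related strains or a neighbour covariate. The strain test of Txnrd2 1451936_a_at no longer passed without the filter (limma adjusted p = 0.0950). Leaving out any 1 strain, the member probe sets called with fluoxetine or in C57BL/6J numbered 0.

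Counts over all probe sets were less stable. The 10 fluoxetine calls became 0 without the filter, with the mean of a gene's probe sets, with no replicate block and without C57BL/6J, and ranged from 0 to 21 with 1 strain left out, highest without RIIIS/J. The 9 C57BL/6J calls became 134 without the filter, 1 with 1 probe set per gene, 2 with gene means, 41 with water arrays alone and 4341 with 60 arrays fitted singly, and ranged from 9 to 27 with 1 strain left out, highest without C57BLKS/J. The 18551 strain calls became 10501 genes with 1 probe set per gene and 10532 with gene means, which test fewer features. Member calls in C57BL/6J went from 0 to 8 with 60 arrays and to 1 with each neighbour covariate, chosen after seeing the data. Unless stated, the cause was not tested.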
